A study of Mus musculus with 12 samples.

Results

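The intermediate filament genes of neurons and glia were examined in dorsal root ganglia (DRG), the clusters of sensory nerve cell bodies beside the spinal cord. The 8 genes are Nefl, Nefm and Nefh, which encode the light, medium and heavy neurofilament subunits, Ina (alpha-internexin), Prph (peripherin), Vim (vimentin), Gfap (glial fibrillary acidic protein) and Nes (nestin). They were chosen by gene name, and each was found once among the 24490 genes listed. RNA was measured in 12 samples from adult C57Bl/6 mice, and ganglia were collected from every spinal level. The 4 intact samples held whole frozen ganglia of 1 mouse each. The 4 unsorted samples, titled Dissociated, held cell suspensions of 2 mice each, made with dispase, collagenase and DNAse, trituration and a filter. The 4 MACS-sorted samples held suspensions of 8 mice each, from which cells bound by a cocktail of antibodies to non-neuronal cells were held back on a magnetic column, so that the eluted cells were collected.

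Intermediate filaments are rope-like polymers that give cells mechanical strength. In neurons the neurofilament subunits co-assemble with alpha-internexin or peripherin, fill the axon and help to set its calibre, so that large myelinated sensory neurons are rich in neurofilament while many small unmyelinated nociceptors are rich in peripherin. Vimentin is the filament protein of fibroblasts, endothelial cells and many glia, glial fibrillary acidic protein is that of astrocytes and some peripheral glia, and nestin is known from progenitor cells and is also found in Schwann cells and vessel-associated cells.

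Values are FPKM, fragments mapped to a gene scaled to its transcript length and to the depth of the library, so that genes can be compared per length. The spacing of the lowest values gave an estimated 16100000 to 19200000 mapped fragments for intact, 15450000 to 18150000 for unsorted and 13400000 to 16950000 for MACS-sorted samples, at which 1 fragment on a transcript of 2000 bases is worth between 0.0282 and 0.0403 FPKM. Intact replicate 1 stood apart from the other intact samples. Over the 1223 genes that averaged 50 FPKM or more, its median absolute log2 difference from them was 0.30 to 0.35, against 0.06 to 0.08 among the other 3. Its 9 skeletal muscle markers summed to 2795 FPKM, against 67.0, 16.6 and 19.5 FPKM in intact replicates 2 to 4, with Mylpf the most abundant. It was also shifted by transcript length: the median log2 difference from the other intact samples was 0.70 for genes with a longest coding transcript under 1000 bases and −0.56 for those of 8000 bases or more. The labels give an RNA integrity number above 8 for every sample. For comparisons with intact samples, fold changes of the 8 genes and list counts that change are therefore given with and without it. Unsorted replicates 1 and 2 differed by 0.03 on the same measure, less than any other pair within a group (0.06 to 0.35), and were kept as 2 samples, as labelled. MACS-sorted replicate 4 differed by 0.18 to 0.31 from the other MACS-sorted samples, which differed by 0.10 to 0.17 among themselves.

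The neurofilament subunits were among the most abundant transcripts of the ganglion. Nefl, the core subunit on which the others assemble, was at 1311, 1564, 1794 and 1707 FPKM in intact replicates 1 to 4, at 1883, 1897, 2208 and 2015 FPKM in unsorted replicates 1 to 4, while MACS-sorted replicates 1 to 4 held 953, 957, 882 and 723 FPKM. All 4 unsorted samples lay above all intact samples, and all 4 MACS-sorted samples lay below both. Such gaps were common among genes that averaged 1 FPKM or more. For 20.8% all unsorted samples lay above all intact samples. For 27.8% all MACS-sorted samples lay below all unsorted samples, and for 21.9% below all intact samples. By mean FPKM, Nefl ranked 4 of 24490 genes in intact DRG, ranked 2 in unsorted DRG and stood at rank 20 after MACS sorting, and it was the most abundant transcript of all in unsorted replicates 3 and 4. Nefm, the medium subunit, was at 441, 780, 823 and 770 FPKM in intact, at 1185, 1174, 1369 and 1238 FPKM in unsorted while MACS-sorted replicates 1 to 4 held 400, 326, 338 and 271 FPKM. The groups again did not overlap, although intact replicate 1 came close to MACS-sorted replicate 1. Nefh, the heavy subunit with a long phosphorylated tail, was at 221, 397, 436 and 387 FPKM in intact, at 619, 610, 745 and 690 FPKM in unsorted while MACS-sorted replicates 1 to 4 held 102, 54.2, 81.9 and 68.2 FPKM. For this subunit the lowest intact sample, replicate 1, was still above every MACS-sorted sample.

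Prph, the type III filament protein typical of small sensory neurons, was at 888, 773, 891 and 909 FPKM in intact, at 889, 848, 876 and 855 FPKM in unsorted while MACS-sorted replicates 1 to 4 held 1550, 1817, 1321 and 1343 FPKM. Intact and unsorted samples overlapped, and all 4 MACS-sorted samples were above both. Among genes that averaged 1 FPKM or more, 18.4% had all MACS-sorted samples above all unsorted samples. For 15.6% they lay above all intact samples. Ina, a neuronal subunit that can join neurofilaments, was at 8.81, 11.3, 10.95 and 10.8 FPKM in intact, at 15.0, 14.8, 18.5 and 14.4 FPKM in unsorted while MACS-sorted replicates 1 to 4 held 21.9, 26.1, 21.1 and 19.6 FPKM. The groups did not overlap, and the order ran from intact through unsorted to MACS-sorted, at levels far under those of the other neuronal filament genes.

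Vim was at 297, 204, 230 and 219 FPKM in intact, at 260, 257, 235 and 261 FPKM in unsorted while MACS-sorted replicates 1 to 4 held 37.6, 39.0, 28.8 and 46.0 FPKM. Intact and unsorted samples overlapped, with intact replicate 1 the highest of all, and the MACS-sorted samples lay far below. Nes was at 9.89, 7.73, 9.32 and 7.17 FPKM in intact, at 6.43, 6.52, 4.89 and 8.28 FPKM in unsorted while MACS-sorted replicates 1 to 4 held 0.547, 0.431, 0.946 and 1.03 FPKM, so that only the MACS-sorted samples stood clear of the others. Gfap was at 7.19, 0.884, 1.10 and 3.13 FPKM in intact, at 0.159, 0.230, 0.141 and 0.103 FPKM in unsorted while MACS-sorted replicates 1 to 4 held 0.172, 0.0519, 0.225 and 0.858 FPKM. Gfap was low everywhere outside intact samples, in which it was uneven, and MACS-sorted replicate 4 reached nearly the level of intact replicate 2.

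**Figure D1:**
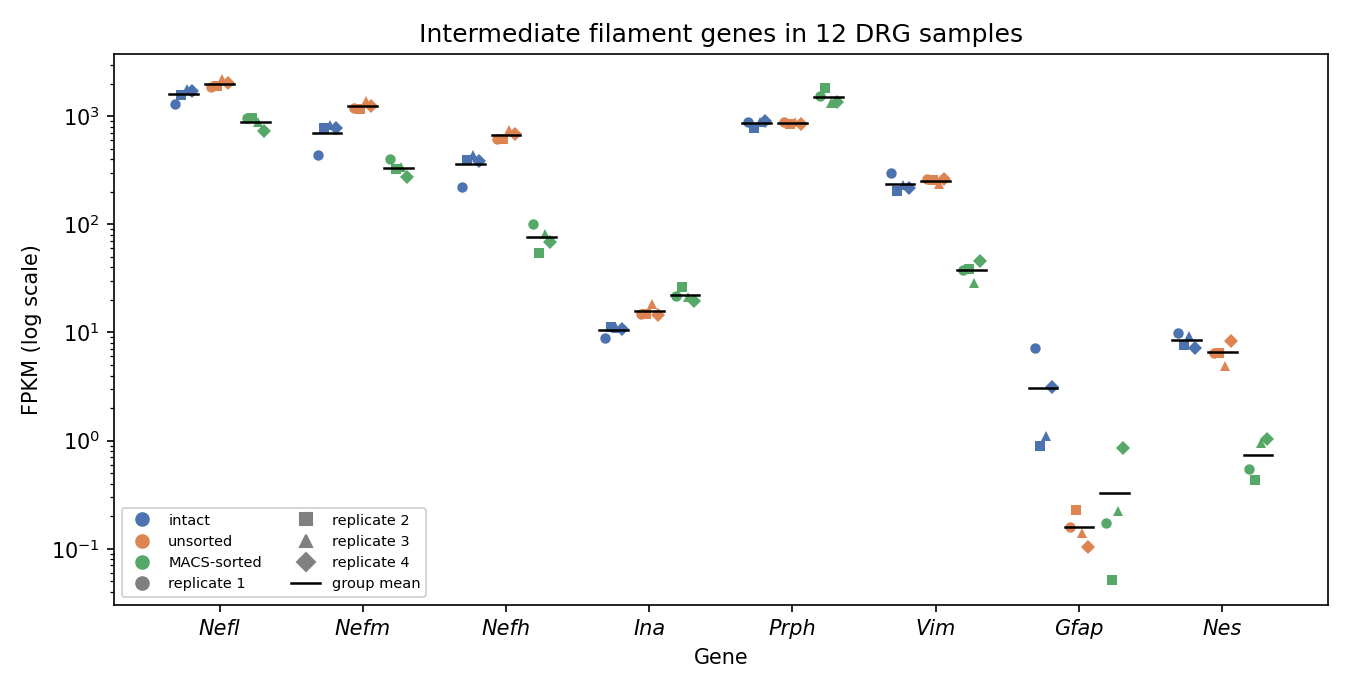
FPKM of each of the 8 genes (log axis) in every sample, coloured by group (intact, unsorted, MACS-sorted) with a symbol per replicate and a black bar at the group mean. The Nefh points of the MACS-sorted samples sit between 54.2 and 102 FPKM, below all intact and unsorted points, whereas their Prph points sit between 1321 and 1817 FPKM, above all others.

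Levels in FPKM differed widely between the 8 genes within a group, with overlaps between neighbours in the intact samples. In intact DRG the means fell from Nefl (1594 ± 211 FPKM, SD, n = 4) through Prph, Nefm, Nefh, Vim, Ina and Nes to Gfap (3.07 ± 2.92 FPKM, SD, n = 4). The samples of Prph and Nefm, of Nefh and Vim, of Ina and Nes and of Nes and Gfap overlapped there, and only those of Prph and Nefm did so without intact replicate 1. In unsorted DRG the order was Nefl, Nefm, Prph, Nefh, Vim, Ina, Nes and Gfap, and no neighbours overlapped. In MACS-sorted DRG Prph came first (1508 ± 231 FPKM, SD, n = 4) before Nefl (879 ± 109 FPKM, SD, n = 4), Nefm, Nefh, Vim, Ina, Nes and Gfap, and only Nes and Gfap overlapped. Together the 8 genes took 1.27 ± 0.236% of the summed FPKM of all genes (intact), 1.65 ± 0.0956% (unsorted) and 0.932 ± 0.0922% (MACS-sorted; SD, n = 4 each), and 1.38% in intact samples without replicate 1.

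MACS-sorted DRG were compared with unsorted DRG, which had been dissociated in the same way without the column step and came from 2 mice in place of 8 per sample. The two-sided test was that of limma, fitted to log2(FPKM + 0.1) and adjusted by the Benjamini-Hochberg method over every gene whose mean reached 1 FPKM in the 8 samples. A call needed an adjusted p below 0.05, group means that differed by more than 0.5 in log2 ratio, and more than 5 FPKM on average in the group with the higher level. The pseudocount of 0.1 makes the log2-fold changes understate those of low genes. Of the 8 genes, 7 were tested, and 2 were called higher and 5 lower in MACS-sorted samples. Over all 12038 genes tested, 8.15% were called higher and 12.5% lower, and quantile normalization turned 981 higher and 1505 lower into 1382 and 1285. The median log2-fold change was −1.91 over the 7 genes and −0.04 over all genes tested. Gfap had a mean under 1 FPKM and was not tested.

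The subunits of the neurofilament triplet fell by unequal amounts. The log2-fold change was −1.19 for Nefl (SE 0.12, adjusted p = 3.3e-05, limma), −1.91 for Nefm (SE 0.12, adjusted p = 2.6e-06, limma) and −3.15 for Nefh (SE 0.17, adjusted p = 1.2e-06, limma). Over the alternatives it ran from −1.78 to −1.10 for Nefl, from −2.04 to −1.81 for Nefm and from −3.30 to −3.00 for Nefh. In FPKM, mean Nefh was 666 ± 63.9 in unsorted and 76.5 ± 20.2 in MACS-sorted samples (SD, n = 4 each), and mean Nefl was 2001 ± 150 and 879 ± 109 (SD, n = 4 each). Whether the difference between the subunits exceeded error was not tested. In the same samples Prph rose by 0.79 on the log2 scale (SE 0.11, adjusted p = 3.9e-04, limma), from 867 ± 19.0 to 1508 ± 231 FPKM (SD, n = 4 each). Ina rose by 0.50 (SE 0.11, adjusted p = 0.0044, limma). The log2 ratio of mean Ina was also 0.50, and Ina lost its call, at an unchanged direction, when unsorted replicate 1, 2 or 4 or MACS-sorted replicate 2 was left out, which left 1 gene called higher. In bulk RNA, fewer cells of a type and less RNA per cell cannot be told apart, for neurons as for glia.

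Vim fell by 2.76 on the log2 scale (SE 0.13, adjusted p = 4.3e-07, limma), from 253 ± 12.2 to 37.8 ± 7.09 FPKM (SD, n = 4 each). Nes fell by 3.03 (SE 0.27, adjusted p = 1.9e-05, limma), from 6.53 ± 1.38 to 0.739 ± 0.294 FPKM (SD, n = 4 each). The lowest unsorted sample was above the highest MACS-sorted sample for both genes, as it was for 27.8% of all genes tested.

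Markers of neuron classes were counted beside the neurofilament and peripherin genes. Of 7 markers of large-diameter neurons, 6 were called lower and 0 higher in MACS-sorted samples by limma, with a median log2-fold change of −2.97, and 0 were higher at an unadjusted p under 0.05. Their summed level was 573, 211, 225 and 210 FPKM in intact, 245, 244, 301 and 299 FPKM in unsorted and 56.2, 28.2, 49.5 and 49.9 FPKM in MACS-sorted replicates 1 to 4. Pvalb, a calcium buffer of proprioceptors and the most abundant of them by mean in unsorted samples, fell by 3.67 (SE 0.51, adjusted p = 2.8e-04, limma), and Ntrk3, the receptor for neurotrophin-3, fell by 1.46 (SE 0.15, adjusted p = 3.7e-05, limma). Ntrk2, also on the list and measured as a whole gene, gave −3.53 (SE 0.25, adjusted p = 5.3e-06, limma). The study proposes that the truncated form of its receptor is made mainly by non-neuronal cells of the ganglion. None of these 7 markers was listed at 0 in any sample. The sum in intact replicate 1 held 441 FPKM of Pvalb, which fast skeletal muscle also expresses, beside the 2795 FPKM of skeletal muscle markers in that sample, and the part of muscle in it was not tested. Of 8 markers of small-diameter nociceptors, 6 were called higher and 1 lower, with a median of 0.63. Their summed level was 2559, 1624, 1600 and 1704 FPKM in intact, 1798, 1789, 1681 and 1774 FPKM in unsorted and 2478, 2198, 2121 and 1543 FPKM in MACS-sorted replicates 1 to 4, with Calca the most abundant. The sodium channel gene Scn11a rose by 1.03 (SE 0.11, adjusted p = 5.4e-05, limma). What these classes contribute to the filament genes was not tested.

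Of 8 pan-neuronal markers, 0 were called higher and 2 lower by limma, with a median log2-fold change of −0.04 and 2 higher at an unadjusted p under 0.05. They summed to between 3419 and 3655 FPKM in intact, 4081 and 4379 FPKM in unsorted and 3507 and 4485 FPKM in MACS-sorted samples, with Uchl1 the most abundant and none listed at 0. Snap25, of the synaptic fusion machinery, fell by 0.94 (SE 0.07, adjusted p = 7.7e-06, limma) and Map2, a microtubule protein of dendrites and cell bodies, fell by 1.77 (SE 0.31, adjusted p = 0.0013, limma).

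Most markers of satellite glia, Schwann cells and fibroblasts were also called lower. Of 7 satellite glia markers, 6 were called lower, and of 8 Schwann cell markers, 7 were called lower. Satellite glia markers summed to 645, 485, 479 and 507 FPKM in intact, 627, 606, 465 and 519 FPKM in unsorted and 106, 84.5, 108 and 127 FPKM in MACS-sorted replicates 1 to 4. Schwann cell markers summed to 4605, 2967, 3357 and 2537 FPKM in intact, 2772, 2791, 1954 and 3230 FPKM in unsorted and 578, 528, 604 and 1215 FPKM in MACS-sorted replicates 1 to 4. Fabp7, a fatty acid binding protein and the satellite glia marker most abundant in intact and unsorted samples, fell by 6.51 (SE 0.55, adjusted p = 1.4e-05, limma). Most of the MACS-sorted satellite glia sum was Glul, at 104, 82.3, 105 and 111 FPKM in replicates 1 to 4. Glul fell by 0.58 (SE 0.10, adjusted p = 0.0010, limma). Most of the MACS-sorted Schwann cell sum was Pmp22 and Mbp, with means of 373 and 276 FPKM. Mbp was not called (−1.19, SE 0.50, adjusted p = 0.077, limma) and reached 578 FPKM in MACS-sorted replicate 4. Among these 15 markers, only Mag was listed at 0, in 1 MACS-sorted sample.

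Of 6 fibroblast markers tested, 5 were called lower. The 7 on the list summed to 875, 483, 523 and 457 FPKM in intact, 295, 287, 150 and 210 FPKM in unsorted and 7.60, 8.39, 14.3 and 29.7 FPKM in MACS-sorted replicates 1 to 4, where Dpt was at 0 in 4 samples and Lum in 3. Dcn, a matrix proteoglycan and the most abundant, fell by 3.42 (SE 0.28, adjusted p = 1.2e-05, limma). Of 6 pericyte and smooth muscle markers tested, 3 were called lower and 1 higher. The 7 on that list summed to 86.2, 90.4, 84.2 and 93.8 FPKM in intact, 89.1, 86.4, 67.3 and 69.5 FPKM in unsorted and 55.9, 90.7, 80.3 and 125 FPKM in MACS-sorted replicates 1 to 4, most of it Rgs5, and Tagln was at 0 in all 4 MACS-sorted samples. Of 6 endothelial markers, 0 were called in either direction by limma and 0 passed an unadjusted p under 0.05, and they summed to 56.6, 56.4, 45.1 and 49.2 FPKM in unsorted and 55.1, 14.3, 49.2 and 79.0 FPKM in MACS-sorted replicates 1 to 4, with Cldn5 the most abundant and none at 0. Rgs5 was the pericyte and smooth muscle marker called higher, by 0.87 (SE 0.22, adjusted p = 0.0093, limma). The part of each cell type in Vim and Nes was not tested.

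Of the macrophage markers 1 was tested, Csf1r, the most abundant in unsorted samples. It gave −4.30 (SE 0.42, adjusted p = 3.4e-05, limma) and missed a call by the limit of 5 FPKM. The sum of the list was 5.39 to 9.88 FPKM in unsorted and 0.498 to 2.38 FPKM in MACS-sorted samples. Red blood cell markers went the other way: 6 of 6 tested were called higher, and the 7 found of 9 summed to 294, 325, 88.1 and 138 FPKM in unsorted and 1473, 1985, 9888 and 12683 FPKM in MACS-sorted replicates 1 to 4, with Hbb-bs the most abundant by its mean in MACS-sorted samples. Skeletal muscle markers were below the filter in these 8 samples. Rescaling after removal of the red blood cell list changed no call of the 8 filament genes.

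Ratios within a sample do not depend on scaling between samples by a factor. The ratio of Nefh to Prph was 0.249, 0.514, 0.489 and 0.426 in intact, 0.696, 0.719, 0.851 and 0.808 in unsorted and 0.0655, 0.0298, 0.0620 and 0.0507 in MACS-sorted replicates 1 to 4. The groups did not overlap, and the intact mean of 0.419 ± 0.120 (SD, n = 4) was 0.476 ± 0.0453 (SD, n = 3) without replicate 1. Nefm to Nefh was 1.96 ± 0.0492 in intact and 1.87 ± 0.0637 in unsorted samples (SD, n = 4 each), whose samples overlapped, and 4.51 ± 1.00 in MACS-sorted samples (SD, n = 4), where replicate 2 was at 6.01. Nefl to Nefm was 2.34 ± 0.429 (intact), 1.61 ± 0.0167 (unsorted) and 2.65 ± 0.228 (MACS-sorted; SD, n = 4 each), and without replicate 1 the intact value was 2.13 ± 0.113 (SD, n = 3). Quantile normalization, which is not a scaling by a factor, took the unsorted ratio to 2.12. Nefh made up 13.4 ± 1.51%, 17.0 ± 0.428% and 5.94 ± 1.29% of the summed triplet in intact, unsorted and MACS-sorted samples (SD, n = 4 each), and 14.1 ± 0.502% in intact replicates 2 to 4 (SD, n = 3).

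Peripherin transcripts took 24.9 ± 4.15% of the summed FPKM of the 5 neuronal filament genes in intact (22.8% without replicate 1), 18.1 ± 1.11% in unsorted and 53.4 ± 3.39% in MACS-sorted samples (SD, n = 4 each). By sample the share was 30.9, 21.9, 22.5 and 24.0% in intact, 19.4, 18.7, 16.8 and 17.8% in unsorted and 51.2, 57.1, 49.96 and 55.4% in MACS-sorted replicates 1 to 4. The summed FPKM of these 5 genes was 3534 ± 477 (intact), 4791 ± 307 (unsorted) and 2819 ± 346 (MACS-sorted; SD, n = 4 each). Intact replicate 1, at 2869 FPKM, lay below MACS-sorted replicates 1 and 2, and the intact value without it was 3755 ± 216 FPKM (SD, n = 3).

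**Figure D2:**
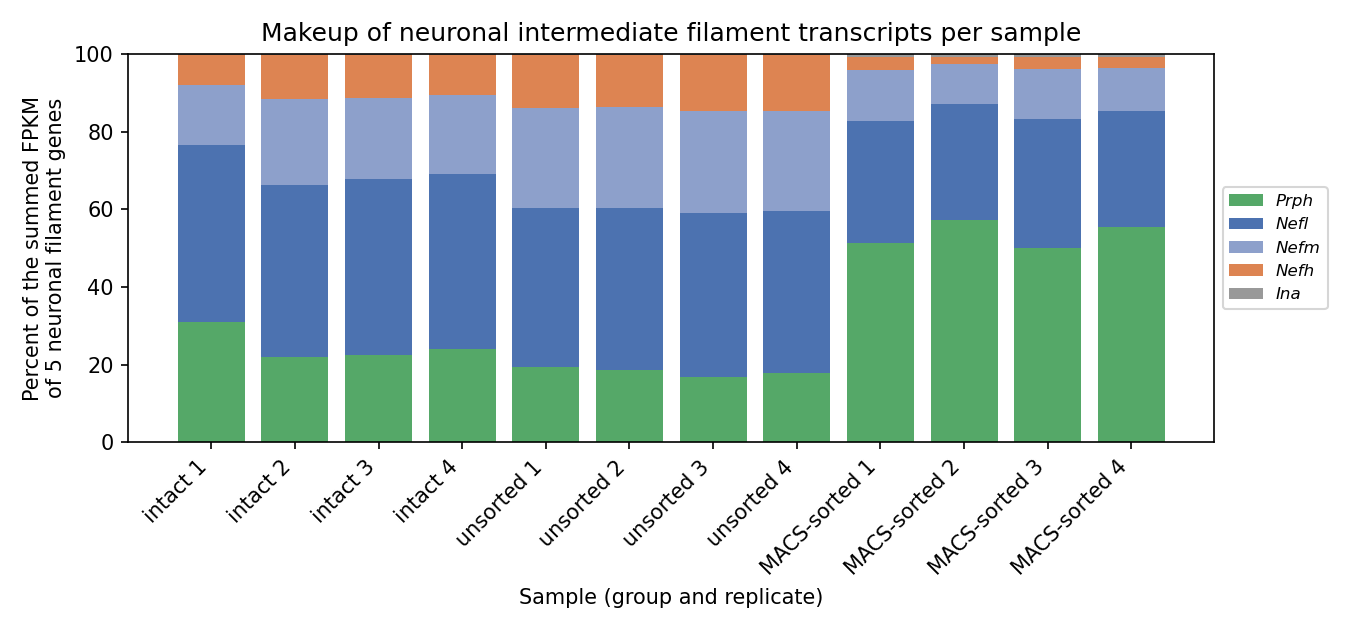
Stacked bars give, for each of the 12 samples, the percent of the summed FPKM of Prph, Nefl, Nefm, Nefh and Ina that belongs to each gene. The Prph share is 49.96 to 57.1% after MACS sorting and 16.8 to 30.9% before it, and Ina is under 1% in each.

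Unsorted DRG were compared with intact DRG, which had not been dissociated and came from 1 mouse in place of 2 per sample. All 8 genes were tested, and 3 were called higher and 0 lower in unsorted samples by limma, with 2 lower at an unadjusted p under 0.05. Over all 12392 genes tested, 4.29% were called higher and 2.76% lower. With the red blood cell list removed and samples rescaled to equal summed FPKM, 531 and 342 genes became 343 and 431. Removal of the skeletal muscle list with the same rescaling gave 344 and 427. Removal and rescaling were not tested apart. The median log2-fold change was 0.22 over the 8 genes and 0.01 over all genes tested. Nefm rose by 0.86 (SE 0.19, adjusted p = 0.014, limma), from 704 ± 177 to 1241 ± 89.4 FPKM (SD, n = 4 each). Nefh rose by 0.93 (SE 0.20, adjusted p = 0.013, limma), from 360 ± 95.4 to 666 ± 63.9 FPKM (SD, n = 4 each), and Ina rose by 0.58 (SE 0.11, adjusted p = 0.0087, limma). Without intact replicate 1, in which these 3 genes were at their lowest among intact samples, the log2-fold changes were 0.65 for Nefm (adjusted p = 1.8e-04, limma), 0.71 for Nefh (adjusted p = 3.5e-04, limma) and 0.50 for Ina (adjusted p = 0.0029, limma), and 3 genes were called. Over the alternatives the adjusted p ran from 1.8e-04 to 0.057 for Nefm, from 3.5e-04 to 0.050 for Nefh and from 0.0029 to 0.036 for Ina, and quantile normalization ended the calls of Nefm and Nefh at log2-fold changes of 0.92 and 0.88. Without unsorted replicate 3, the highest of its group for Ina, the log2-fold change of Ina was 0.49. The log2 ratio of mean Ina then fell under the fold limit, which ended its call.

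The other members did not pass. Nefl gave 0.34 (SE 0.11, adjusted p = 0.053, limma), and 0.24 (adjusted p = 0.023, limma; 0.023 to 0.19 over the alternatives) without intact replicate 1, below the fold limit. Each unsorted sample exceeded each intact sample for Nefl, as for 20.8% of all genes tested. The log2-fold change of Nefl ran from 0.24 to 0.64 over the alternatives. Prph gave 0.01 (SE 0.07, adjusted p = 0.96, limma), and 0.02 without intact replicate 1, with a sign that turned under several scalings. Vim gave 0.11 (SE 0.11, adjusted p = 0.52, limma), and 0.22 (adjusted p = 0.016, limma; 0.016 to 0.82 over the alternatives) without intact replicate 1, in which Vim was at its highest. Nes gave −0.39 (SE 0.16, adjusted p = 0.11, limma), and −0.32 without that sample. Gfap gave −3.17 (SE 0.59, adjusted p = 0.0082, limma), but its intact mean of 3.07 FPKM kept it under the limit of 5 FPKM for a call. Intact replicate 1 raised that mean, and intact replicates 2 to 4 had a mean of 1.70 ± 1.24 FPKM (SD, n = 3). Without intact replicate 1, Gfap averaged under 1 FPKM and was not tested.

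In intact replicate 1, the log2 difference from the mean of the other intact samples was −0.36 for Nefl, −0.84 for Nefm, −0.88 for Nefh, −0.32 for Ina, 0.05 for Prph, 0.45 for Vim, 0.30 for Nes and 2.22 for Gfap. The longest coding transcripts of Nefl, Nefm, Nefh and Ina are 3380, 3680, 3994 and 3240 bases, a length class (2000 to 4000 bases) whose median difference was 0.07 over 3118 genes. Between unsorted samples and intact replicates 2 to 4 the median of that class was 0.09. The part of transcript length in these values was not tested.

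Of the 7 markers of large-diameter neurons, 4 were called higher and 0 lower in unsorted samples by limma, with a median of 0.61 and 0 lower at an unadjusted p under 0.05. Ntrk3 rose by 0.62 (SE 0.11, adjusted p = 0.0077, limma) and Calb1, a calcium-binding protein, by 0.61 (SE 0.12, adjusted p = 0.0090, limma), and without intact replicate 1 the values were 0.57 and 0.71. Calb1 passed in 19 of 20 alternatives (adjusted p 4.0e-04 to 0.18) and failed with all 12 samples in 1 fit. Pvalb reached 441 FPKM in intact replicate 1, against 61.8 to 67.8 FPKM in its group otherwise, and its log2-fold change of −0.35 became 0.35 without that sample. Of 8 nociceptor markers, 1 was called higher and 0 lower by limma, with 1 lower at an unadjusted p under 0.05. Of 8 pan-neuronal markers, 0 were called by limma, 4 were higher at an adjusted and 5 at an unadjusted p under 0.05 and the median was 0.31. Between unsorted and intact samples 2 of the 3 triplet genes and 4 of the 7 large-diameter markers were thus called higher, and between MACS-sorted and unsorted samples 3 of 3 and 6 of 7 were called lower, in comparisons that share the unsorted samples.

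Markers of other cell types also differed between these groups. Of 6 endothelial markers, 5 were called higher, and their sum was 26.6, 24.0, 26.2 and 26.3 FPKM in intact samples. Of 7 fibroblast markers, 4 were called lower, and of 8 skeletal muscle markers tested, 7 were called lower. Satellite glia had 2 of 7 called higher, Schwann cells 0 of 8 by limma with 2 lower at an unadjusted p under 0.05, pericytes and smooth muscle 1 of 6 called higher, macrophages 1 of 6 called lower and red blood cells 0 of 4 by limma with 0 at an unadjusted p under 0.05. Muscle markers summed to 0.780 to 8.52 FPKM in unsorted samples, with Myh2 at 0 in 3 of them and Tnni2 and Mb at 0 in 2. Without intact replicate 1, 3 of 6 skeletal muscle markers tested were called lower, 0 of 5 macrophage markers were called by limma with 5 lower at an unadjusted p under 0.05, and the other cell type and filament lists kept their called genes. The part of these cell types in the filament genes was not tested.

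Gfap was set beside markers of astrocytes and oligodendrocytes, central glia that could come with attached roots, from a list of 7 written after the values were seen. The list summed to 16.4, 7.39, 9.75 and 10.8 FPKM in intact, 7.85, 7.73, 6.94 and 5.56 FPKM in unsorted and 4.84, 2.19, 7.15 and 16.5 FPKM in MACS-sorted replicates 1 to 4. By mean the most abundant was Gjb6 in intact, Aqp4 in unsorted and Mobp in MACS-sorted samples, and Opalin was at 0 in 3 intact samples and in all others. Of 3 tested between unsorted and intact samples, 0 were called by limma and 1, Gjb6, was lower at an adjusted and at an unadjusted p under 0.05. Mog, a myelin protein of oligodendrocytes, was at 1.15, 0.0702, 0.0664 and 0.245 FPKM in intact replicates 1 to 4, and Gjb6 at 4.97, 2.51, 3.36 and 3.79 FPKM. Among intact samples, replicates 1 and 4 were the highest for Gfap, Mog, Gjb6, Mobp and Slc1a2, whereas Aqp4 and Aldh1l1 were highest in replicate 3 and Opalin was above 0 in replicate 1 alone. Between MACS-sorted and unsorted samples Mobp rose by 3.58 (SE 0.72, adjusted p = 0.0026, limma), while Aqp4 gave −2.81 (SE 0.24, adjusted p = 1.6e-05, limma) and Aldh1l1 −2.85 (SE 0.31, adjusted p = 6.4e-05, limma) at levels too low for a call. The part of central glia in Gfap was not tested.

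MACS-sorted against intact DRG shares its MACS-sorted samples with the first comparison and its intact samples with the second, and its values are given for completeness. All 8 genes were tested, 2 were called higher and 5 lower, and over all 12234 genes tested 7.54% were called higher and 10.7% lower, a balance that turned under quantile normalization. The median was −1.64 over the 8 genes and −0.04 over all genes tested. The log2-fold changes were −0.86 for Nefl, −1.05 for Nefm, −2.23 for Nefh, −2.65 for Vim and −3.42 for Nes, with adjusted p from limma between 6.9e-06 and 0.0042. Ina rose by 1.08 (SE 0.12, adjusted p = 1.3e-04, limma) and Prph by 0.79 (SE 0.15, adjusted p = 0.0027, limma). Without intact replicate 1 the values were −0.95, −1.26, −2.45, −2.54 and −3.35 for the first 5 genes, 1.00 for Ina and 0.81 for Prph, with the same numbers of calls. Gfap gave −2.77 (SE 0.73, adjusted p = 0.016, limma) at levels too low for a call, and was not tested without that sample.

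The other genes of the filament system were taken from 5 lists. Of 17 further intermediate filament genes, 7 could be tested after against before sorting and 0 were called by limma, with 4 higher and 1 lower at an adjusted and at an unadjusted p under 0.05. The most abundant was Synm, whose product synemin joins desmin or vimentin filaments, at 72.8 ± 3.99 FPKM in unsorted and 75.9 ± 5.00 FPKM in MACS-sorted samples (SD, n = 4 each) with a log2-fold change of 0.06 (SE 0.07, adjusted p = 0.51, limma). Iffo2, chosen after its values were seen, fell by 2.76 (SE 0.43, adjusted p = 6.1e-04, limma), from 3.02 to 0.428 FPKM, below the level for a call. Des, the muscle filament gene desmin, reached 23.6 FPKM in intact replicate 1, against 0.596 to 0.849 FPKM in intact replicates 2 to 4, and it was listed at 0 in 3 MACS-sorted samples. The keratin genes Krt5 and Krt18 were listed at 0 in all 12 samples. Between unsorted and intact samples 8 of the 17 were tested and 0 were called by limma, with 1 higher and 1 lower at an unadjusted p under 0.05.

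Plakins tie filaments to other structures. Of 7, 3 could be tested after against before sorting and 0 were called by limma, with 2 lower at an adjusted and at an unadjusted p under 0.05 and a median of −0.32. Dst, which encodes dystonin and was the most abundant, was at 108 FPKM in unsorted and 86.5 FPKM in MACS-sorted samples (log2-fold change −0.32, SE 0.09, adjusted p = 0.020, limma). Between unsorted and intact samples 0 of 3 were called by limma, with 1 higher at an unadjusted p under 0.05.

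Of 8 genes for filament turnover and chaperones, 2 were called lower and 0 higher in MACS-sorted against unsorted samples by limma, with 2 higher at an unadjusted p under 0.05 and a median of −0.12. Cryab, a small heat shock protein that binds vimentin-type filaments, fell by 4.88 (SE 0.38, adjusted p = 8.6e-06, limma), from 99.1 to 3.91 FPKM. Trim2, a ubiquitin ligase of the light neurofilament subunit, fell by 0.51 (SE 0.06, adjusted p = 1.3e-04, limma), close to the fold limit, and its log2-fold change ran from −0.54 to −0.45 over the alternatives. Hspb8, the most abundant, was at 148 FPKM in unsorted and 200 FPKM in MACS-sorted samples (log2-fold change 0.43, SE 0.09, adjusted p = 0.0039, limma), under the fold limit. In unsorted against intact samples 2 were called higher and 0 lower by limma, with 1 lower at an unadjusted p under 0.05: Hspb1 rose by 0.59 (SE 0.10, adjusted p = 0.0069, limma) and Bag3, a co-chaperone of Hspb8, rose by 0.75 (SE 0.08, adjusted p = 0.0013, limma). Without intact replicate 1 the values were 0.58 and 0.69. Unsorted replicate 1 was the highest of its group for Hspb1, at 85.6 FPKM. Without it the log2 ratio of mean Hspb1 fell just under the fold limit, which ended its call.

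Of 7 neurofilament kinase genes, 0 were called by limma between MACS-sorted and unsorted samples, with 1 higher at an adjusted and at an unadjusted p under 0.05 and a median of 0.01. Between unsorted and intact samples 0 were called by limma, with 4 higher at an adjusted and 5 at an unadjusted p under 0.05. The most abundant, Mapk3, was at 406, 446 and 516 FPKM in intact, unsorted and MACS-sorted samples. Of 5 motor genes for neurofilament transport, 0 were called by limma between MACS-sorted and unsorted samples, with 1 higher and 2 lower at an adjusted and at an unadjusted p under 0.05 and a median of −0.21. The most abundant, Kif5a, was at 172, 232 and 273 FPKM in intact, unsorted and MACS-sorted samples. In unsorted against intact samples Dync1h1, the dynein heavy chain, rose by 0.94 (SE 0.27, adjusted p = 0.034, limma), but passed in only 10 of 20 alternatives (adjusted p 0.0042 to 0.094) and failed when any sample but intact replicate 1 or 3 was left out. Intact replicate 1 held 36.8 FPKM of Dync1h1, against 79.0 to 87.2 FPKM in the other intact samples, and without it the rise was 0.65.

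In MACS-sorted against intact samples the same lists gave 0 higher and 1 lower (Des) of 8 further filament genes, 0 of 3 plakins by limma with 0 at an unadjusted p under 0.05, 1 higher (Bag3) and 1 lower (Cryab) of 8 turnover and chaperone genes, 1 higher (Cdk5r2, an activator of Cdk5) of 7 kinase genes and 2 higher (Kif5a and Dync1h1) of 5 motor genes. Des rested on intact replicate 1 and was not tested without it, and Dync1h1, at 0.73, became 0.44, below the fold limit. Dync1h1 had an adjusted p under 0.05 in only 7 of 19 alternatives (adjusted p 0.0037 to 0.105, limma). Of the cell markers tested there, 5 of 6 for large-diameter neurons, 5 of 7 for satellite glia, 8 of 8 for Schwann cells, 5 of 7 for fibroblasts, 2 of 4 for pericytes and smooth muscle, 1 of 4 for macrophages and 7 of 8 for skeletal muscle were called lower. Called higher were 4 of 8 for nociceptors, 6 of 6 for red blood cells and 1 of 4 for astrocytes and oligodendrocytes, pan-neuronal markers gave 2 higher and 2 lower of 8, and 0 of 6 endothelial markers were called by limma with 1 higher at an unadjusted p under 0.05. Without intact replicate 1, Bag3 was at 0.55, Cryab at −5.13, Cdk5r2 at 0.85 and Kif5a at 0.51. The counts that changed without it were 0 further filament genes called by limma (3 higher and 1 lower at an unadjusted p under 0.05), 2 turnover and chaperone genes higher, 1 motor gene higher, 3 pan-neuronal and 5 nociceptor markers higher, 7 Schwann cell and 3 of 6 skeletal muscle markers lower, and 0 of 4 macrophage markers by limma with 4 lower at an unadjusted p under 0.05.

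For each member above 5 FPKM in some group, the 3 genes of most similar profile over the 12 samples were found among 8957 genes by the root mean square difference of centred log2 values. Nefm lay nearest to Myh10 (0.08), Kcns1 (0.13) and Cntnap1 (0.14), and Nefh to Hs3st2 (0.13), Bcat1 (0.14) and Ryr2 (0.17). Hs3st2 had means of 11.6, 22.3 and 2.17 FPKM in intact, unsorted and MACS-sorted samples. Nefl lay nearest to Oprl1 (0.11), Agpat3 (0.12) and Ermp1 (0.12). Prph lay nearest to Prr13 (0.07), Nyap1 (0.08) and Tagln2 (0.08), and Ina to Wbscr17 (0.11), Disp2 (0.12) and Pacsin1 (0.12). Vim lay nearest to Cadm4 (0.20), Sipa1l2 (0.21) and Epb4.1l4b (0.22), and Nes to Mme (0.22), Smtn (0.25) and Drp2 (0.25). Among the members themselves the closest pair was Prph and Ina (0.27), then Nefl and Nefm (0.33) and Vim and Nes (0.47), and Nefh was nearer to Vim (0.56) than to Nefm (0.59) by this measure.

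In mm10, Nefl (chr14:68083884-68087737, plus strand) and Nefm (chr14:68119545-68125004, minus strand) are neighbours with a gap of 31807 bases. Nefh (chr11:4938756-4948064, minus strand) overlaps Ap1b1, on the opposite strand, by 544 bases. The library kit keeps strand, but whether the authors used strand in counting is not given in the sources used here, so reads of the shared stretch cannot be told apart. Ap1b1, chosen after its values were seen, stood at 0 in all 4 unsorted samples and in intact replicates 2 to 4, at 26.1 FPKM in intact replicate 1 and at 35.9 to 50.3 FPKM in MACS-sorted samples, the samples in which Nefh was low. Whether reads were assigned between Nefh and Ap1b1 was not tested, and a listed 0 can be a failed estimate. Nefm overlaps A230070E04Rik by 1253 bases and Ina overlaps Nt5c2 by 492 bases, so that these values carry the same limit. Prph (chr15:99055174-99058978), Vim (chr2:13574311-13582826) and Nes (chr3:87971093-87980451) are on the plus strand and Gfap (chr11:102887336-102897200) is on the minus strand, with no overlap with another listed gene.

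Promoters are shown for the genes called in opposite directions in MACS-sorted against unsorted samples, since their values moved apart. RefSeq promoters (build GRCm38.p6) were found for 5 of the 8 genes, Ina, Prph, Vim, Gfap and Nes, and not for Nefl, Nefm and Nefh. In the 100 bases before the annotated start, 3 motifs were searched on both strands: TATAAA, which 5.56% of 32851 promoters held in this window, CCAAT (18.9%) and GGGCGG (24.7%). No motif overlaps another in these sequences. TATAAA was found in Prph, starting 31 bases before the start, and in Vim, 32 bases before it. GGGCGG, read here as its reverse complement, was found in Ina and Prph and at 2 places in Nes, CCAAT as its reverse complement in Vim, and none of the 3 in Gfap. Capitals mark the motifs in the sequences of Prph (chr15:99055074-99055173, plus strand) and Ina (chr19:47014581-47014680, plus strand), which were higher, and of Vim (chr2:13574211-13574310, plus strand) and Nes (chr3:87970993-87971092, plus strand), which were lower.
Prph: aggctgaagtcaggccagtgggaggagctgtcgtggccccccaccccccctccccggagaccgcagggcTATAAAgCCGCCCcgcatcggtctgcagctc
Ina: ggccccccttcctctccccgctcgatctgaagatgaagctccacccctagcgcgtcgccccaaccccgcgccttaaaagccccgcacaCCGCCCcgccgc
Vim: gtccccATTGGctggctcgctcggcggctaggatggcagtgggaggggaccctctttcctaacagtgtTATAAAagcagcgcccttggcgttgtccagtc
Nes: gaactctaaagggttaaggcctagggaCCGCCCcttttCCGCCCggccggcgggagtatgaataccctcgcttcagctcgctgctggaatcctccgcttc
TATAAA was thus present in 1 of the 2 genes higher and in 1 of the 2 genes lower among these 4, and GC content was 70% for Prph, 71% for Ina, 60% for Vim and 61% for Nes, against a median of 55% over all promoters.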

How the data were processed

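Polyadenylated RNA of 12 samples (4 per group) was sequenced. The authors aligned reads to mm10 with TopHat2, used SAMtools and estimated FPKM with Cufflinks 2.1.1, and the deposited FPKM values, 1 per gene and sample, were used without rescaling. Each comparison was fitted in its own 8 samples by limma 3.58.1 (R 4.3.3), with its intensity trend option, to log2(FPKM + 0.1) of the genes that averaged 1 FPKM or more. The study's criteria for a call were kept, with limma in place of CuffDiff, which needs aligned reads. An SD is the standard deviation between a group's samples, and an SE is the moderated standard error of limma. A p-value sets the difference between groups against the spread between samples, which limma moderates over genes. For unsorted and MACS-sorted DRG these samples are pools. The depth of each sample was estimated from the spacing of low values of genes with 1 transcript, with fragments of 150 bases assumed. The estimate was tried on counts simulated with the same lengths and fragment length, which cannot check the assumed 150 bases. The limma fit was tried on simulated normal noise with the spread of intact and unsorted samples, not that of MACS-sorted samples. Values per longest coding transcript used GENCODE M21 lengths, which covered 94.9% of 8263 genes. Ratios and shares are descriptions without a test.

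The members and the marker and pathway lists were chosen with earlier results of these data known. The rule for named genes took the 8 members, called genes of a list, the most abundant gene of a list and the 3 nearest profiles, and genes named for values of 0 or low levels were chosen after their values were seen. Some list genes that this rule takes are not reported here. Iffo2, Ap1b1 and the list for astrocytes and oligodendrocytes were chosen after values were seen, as were the values of lists without intact replicate 1. Alternatives covered the pseudocount, the filter, a fit of all samples, a replicate block, no trend, other scalings, averaging of unsorted replicates 1 and 2, other call limits and leaving out each replicate. Removal of a gene list was followed by rescaling of all samples to equal summed FPKM.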

Additional observations from a re-analysis of the deposited data

Results flagged for a closer look

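In 24 of 123 groups of 4 samples examined, 1 sample lay far from the other 3 by Dixon's ratio, where chance gives about 1 in 20 groups. Of these, 13 were intact replicate 1. The groups include Ap1b1, chosen after its values were seen, so the count cannot be compared strictly with that rate. For Ap1b1 in intact replicate 1 and Des in MACS-sorted replicate 1 the other 3 samples were at 0, which fixes the ratio at 1. Among the filament genes, Nefm was at 441 FPKM in intact replicate 1 (770 to 823 in the others), Prph at 773 FPKM in intact replicate 2 (888 to 909), Ina at 18.5 FPKM in unsorted replicate 3 (14.4 to 15.0) and Vim at 235 FPKM in unsorted replicate 3 (257 to 261). The ratio of Nefm to Nefh was 6.01 in MACS-sorted replicate 2 (3.94 to 4.13).

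In intact replicate 1, Pvalb was at 441 FPKM, Dcn at 518 FPKM, Cryab at 210 FPKM, Des at 23.6 FPKM and Ap1b1 at 26.1 FPKM, all above the other intact samples. Scn10a was at 101 FPKM, Map2 at 14.1 FPKM, Trim2 at 36.9 FPKM, Dync1h1 at 36.8 FPKM, Kif5a at 118 FPKM, Synm at 42.1 FPKM and Dst at 42.4 FPKM in it, all below them.

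In unsorted replicate 3, Scn10a was at 191 FPKM and Dst at 128 FPKM, and in unsorted replicate 4 Calb1 was at 24.7 FPKM, each above its group. In MACS-sorted replicate 4, Scn10a was at 237 FPKM, below its group, and Fabp7 at 10.8 FPKM and Cryab at 8.46 FPKM, above it. Des was at 0.0502 FPKM in MACS-sorted replicate 1 and listed at 0 in the others.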

How the results depend on the processing

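Every call of Nefl, Nefm, Nefh, Vim and Nes in the comparisons with MACS-sorted samples kept its direction and an adjusted p under 0.05 under each alternative that tested it. For MACS-sorted against unsorted samples, the 2 genes called higher became 1 with unsorted replicates 1 and 2 averaged and 0 with a log2 ratio beyond 1, and 1 to 2 with a replicate left out, since Ina lay at the fold limit. For unsorted against intact samples, the 3 called higher became 1 under quantile normalization and 0 with a log2 ratio beyond 1, and the 0 called lower became 1, Gfap, with adjusted p alone or with a limit of 1 FPKM in the higher group. For MACS-sorted against intact samples, the 2 called higher became 1 with a log2 ratio beyond 1. Other counts (125 alternatives) stayed within 1.5 times.

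The Prph log2-fold change, unsorted against intact, lay near 0 and turned sign: −4.87e-05 with median-ratio size factors, −0.069 with quantile normalization, −0.015 with the red blood cell list removed, −0.018 with the skeletal muscle list removed and −0.048 to 0.031 with a replicate left out. The Uchl1 log2-fold change, MACS-sorted against unsorted, turned to −0.11 under quantile normalization. With a replicate left out, the Pvalb log2-fold change, unsorted against intact, ran from −0.60 to 0.35, the Fabp7 log2-fold change, unsorted against intact, from −0.20 to 0.0013, and the Dst log2-fold change, MACS-sorted against intact, from −0.080 to 0.29. The causes were not tested. Of the other fold changes, 33 gained and 64 lost an adjusted p under 0.05.

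Quantile normalization moved the median log2-fold change of all genes by 0.14 for MACS-sorted against unsorted and 0.16 for MACS-sorted against intact samples, and it turned 981 genes called higher and 1505 lower into 1382 and 1285 in the first, and 922 and 1313 into 1248 and 1183 in the second. For unsorted against intact samples, 531 genes higher and 342 lower became 343 and 431 with the red blood cell list removed. They became 344 and 427 with the skeletal muscle list removed. Both removals were followed by rescaling of all samples to equal summed FPKM. Leaving out a replicate gave 376 to 591 higher and 187 to 334 lower. Correlations between samples of the same replicate number ran from −0.19 to 0.09, so the numbers do not pair samples, and the replicate block left the counts of called members at 2 and 5, 3 and 0, and 2 and 5. The lowest Gfap value, 0.0519 FPKM in MACS-sorted replicate 2, is near the 0.0349 FPKM that 1 fragment on 2000 bases is worth there.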
